A study of Mus musculus with 38 samples.

Results

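The gene for Trim28 lies near the proximal end of mouse chromosome 7, and the genes around it travel with whatever Trim28 allele a mouse inherits. The 125 genes described here are its expressed neighbours. They were selected on their summed Emx1-Cre read count and their position, and taken from the 55298 genes of the gene count table, as those that start between 3 and 18 Mb of chromosome 7 (mm10) and hold at least 60 reads summed over the 6 libraries of Emx1-Cre cortex. Trim28 itself and the imprinted genes Peg3, Usp29 and Zim1 were left out by name. The window holds 705 genes in all, of which 576 fell under 60 reads. The summed count pools both genotypes, so it carries no direction, but a gene high in 1 genotype alone could pass through that genotype. Just inside the limit were Rnf225 with 60 reads and AC139131.1 and Bbc3 with 61 each, and just outside it were Gm31152 with 53, Gm44878 with 51 and Pirb with 47. Of the 125 genes, 109 are protein coding and 7 are antisense transcripts, and the remaining 9 are other noncoding RNAs, pseudogenes or unclassified models.

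Trim28 was inactivated along a pair of routes. In the germline-flox experiments the mice carried a Trim28 allele flanked by loxP sites in every cell. The Emx knockout (KO) cortex came from 3 animals with the genotype Emx1-Cre +/-, Trim28-fl +/+, and the control cortex from 3 animals with the genotype Emx1-Cre +/-, Trim28-fl +/-, all 3 months old. Emx1-Cre is active in the progenitors of cortical excitatory neurons and of glia, and not in those of interneurons or microglia. By these labels the controls also carry Cre and 1 excised Trim28 allele, although the study's text also calls its controls Cre-negative. A KO animal therefore carries a floxed chromosome 7 segment on both homologues and a control on 1, so Trim28 dose and the flanking alleles cannot be told apart within the experiment. The sires also carried a gtRosa allele, and the strain of the mice is not given in the sources used here. In the flox experiment, AAV5 vectors brought Cre under the neuronal Synapsin promoter to the forebrain of adult Trim28-flox mice, and sorted nuclei were sequenced 2 months later from 4 KO and 4 control animals. The study describes both +/- and +/+ floxed animals, and the labels give no allele count for each.

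In the CRISPR experiments the Trim28 locus was not altered in the germline, so KO and control do not differ by an inherited engineered Trim28 allele. Whether their flanking alleles were otherwise alike was not tested. Striatal nuclei came from Rosa26 Cas9-GFP knock-in mice (Cas9) or from Stop-Cas9-GFP mice in which Synapsin-driven Cre turns Cas9 on in neurons (StopCas9), 2 months after AAV5 guide vectors. Each line had 4 KO libraries, with guide g3, g4 or g13 or with all of them, and 1 control library with a lacZ guide. Neural progenitor cells (NPC) were cultured from the embryonic forebrain of Cas9 knock-in mice, transduced with lentiviral guides and sorted after 10 days, with 6 KO and 2 control libraries. Single-nucleus libraries came from the cortex of 4 of the 6 Emx animals, 2 of each genotype, and are a second readout of the same animals. The p-values measure the spread between these libraries.

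Trim28 is a nuclear corepressor. KRAB zinc-finger proteins bind DNA through their fingers and recruit Trim28, which brings histone methylation machinery and silences transposable elements (TEs). Genes for such zinc-finger proteins stand in clusters, and the window around Trim28 is one of the places in the mouse genome where they do. It also holds a large cluster of vomeronasal receptor genes, none of which passed the count limit (0 of 100), as none of the 6 NLR and 12 sulfotransferase genes did. What remained was a mixture of 30 zinc-finger genes, 16 genes with roles in neurons and synapses, housekeeping genes and 17 unnamed gene models. An inherited segment around an engineered locus that keeps the sequence of the strain in which it was made is a known feature of such mice, and genes in it can differ in expression or in how well their reads map.

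The designed CRISPR targets lie inside Trim28. The guides follow as ordered by the study, 5′ to 3′, with the adjacent PAM in capitals. A search for exact matches on chromosome 7 (GRCm38) found 1 for each Trim28 guide: g3 on the minus strand at chr7:13025675-13025697 in exon 3, g4 on the minus strand at chr7:13027726-13027748 in exon 4 and g13 on the minus strand at chr7:13029921-13029943 in exon 13. The lacZ control guide had 0 matches on chromosome 7. Cutting itself was not measured here.
g3: gcactccacacaatagctagTGG
g4: ggtccttgtgagcgttgagcTGG
g13: cgcactggttacacatgaccAGG
lacZ control: tgcgaatacgcccacgcgatTGG

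A second set of sequences belongs to the TE copies of the window that are described at the end of the bulk results. These are 3 short interspersed elements of the family B2_Mm1a, read from the reference genome (GRCm38) on the strand of the element. B2 elements derive from a transfer RNA and carry an internal RNA polymerase III promoter, whose box B was searched here as the letters GTTCNANNC and is printed in capitals. They are shown because reads from 2 of the copies were absent in every Emx KO library. B2_Mm1a_dup6686 lies on the plus strand at chr7:4799923-4800104, B2_Mm1a_dup6729 on the minus strand at chr7:13015924-13016110 and B2_Mm1a_dup6787 on the minus strand at chr7:16966803-16966998. The letters start at position 60 of the second and the third copy and are not found in the first. They occur in 94.2% of the 777 B2_Mm1a copies of 180 to 200 bases on chromosome 7 and, on either strand, in 9.32% of 32851 promoter windows from RefSeq (GRCm38). A match describes the reference sequence alone.
B2_Mm1a_dup6686: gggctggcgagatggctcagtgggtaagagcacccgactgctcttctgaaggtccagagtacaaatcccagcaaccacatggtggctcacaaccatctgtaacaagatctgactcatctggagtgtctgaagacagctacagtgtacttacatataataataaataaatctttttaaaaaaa
B2_Mm1a_dup6729: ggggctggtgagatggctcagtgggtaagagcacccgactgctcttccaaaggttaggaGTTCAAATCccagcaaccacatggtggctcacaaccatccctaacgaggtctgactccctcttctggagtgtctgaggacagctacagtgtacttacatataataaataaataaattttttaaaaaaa
B2_Mm1a_dup6787: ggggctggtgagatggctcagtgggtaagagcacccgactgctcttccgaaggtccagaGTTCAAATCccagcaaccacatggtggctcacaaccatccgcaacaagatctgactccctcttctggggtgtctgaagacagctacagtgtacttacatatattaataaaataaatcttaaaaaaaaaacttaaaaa

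Bulk libraries held 8790346 to 25345083 gene counts. Levels are given as CPM, read counts scaled to TMM-normalised library sizes. They are not corrected for gene length, so they are compared between libraries and not between genes. Trim28 (ENSMUSG00000005566.14, chr7:12999114-13031035, plus strand) was measured first, as the targeted gene. In Emx cortex it stood at 6.08, 8.53 and 8.88 CPM in KO and at 20.9, 19.0 and 21.4 CPM in control, a log2 fold change of -1.39 (SE 0.15, edgeR adjusted p = 0.00038). In the flox experiment the order was opposite to the labels. Libraries labelled KO held 131 to 146 CPM and libraries labelled control 25.6 to 31.6 CPM (log2 fold change 2.26, edgeR adjusted p = 2.74e-06). For this experiment the study reports lost Trim28 RNA in sorted nuclei and lost Trim28 protein in neurons of KO animals. The labels were kept throughout, and every flox direction below is that of the libraries as labelled. In NPC, Trim28 lay between 36.8 and 73.6 CPM in KO and at 157 and 204 CPM in control (log2 fold change -1.82, edgeR adjusted p = 0.031). Leaving out any library other than KO NPC_845 or NPC_876 ended that call, with edgeR adjusted p between 0.068 and 0.414. The Cas9 KO libraries held 93.8 to 105 CPM against 143 in their control, and the StopCas9 KO libraries 88.5 to 127 against 105, neither of which passed the test. A frameshift by CRISPR need not lower the RNA, so these levels do not check those labels. Peg3, Usp29 and Zim1 did not pass the test in Emx cortex, with log2 fold changes of 0.07, -0.20 and 0.11.

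The library of Emx KO 76 stood apart from the others of its group. Compared gene by gene after scaling, it differed from the other KO libraries with a chi-square per degree of freedom of 474 and 485, against 15.3 between those 2 and 10.8 to 19.7 between controls. Its summed level of neuron markers was 4900 CPM, against 8030 and 7620 CPM in the other KO libraries and 8310 to 8440 CPM in control. Oligodendrocyte markers summed to 1390 CPM in KO 76, to 1710 and 1780 CPM in the other KO libraries and to 2230 to 2380 CPM in control. The calls in Emx cortex are therefore also given without KO 76. Fewer cells of a type and less RNA per cell cannot be told apart in bulk tissue. In the flox experiment neuron markers stood at 1520 to 1810 and 1450 to 1720 CPM, and microglia markers at 29.9 to 38.5 and 37.8 to 39.7 CPM in libraries labelled KO and control. NPC expressed progenitor markers at 1710 to 4020 CPM in KO and 2070 to 3580 CPM in control, with neuron markers under 82.9 CPM. In the Cas9 line neuron markers summed to 2030 to 2190 CPM in KO against 2260 in the single control, and microglia markers to 23.6 to 37.4 against 22.3 CPM. In StopCas9 they held 2020 to 2370 against 2090 CPM for neurons, and progenitor markers 16.0 to 19.9 against 10.9 CPM. The part of cell composition in the results below was not tested.

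In Emx cortex, 4 of the 121 neighbours tested passed the thresholds, of which 3 fell and 1 rose. The genes that fell were Ptprh, Eps8l1 and Gm45844, which lie 5.79 to 8.54 Mb before Trim28, and the gene that rose was Zfp110, 0.164 Mb before it. A gene was called when its Benjamini-Hochberg adjusted p was under 0.05 over all genes tested and its log2 fold change over 0.5 in either direction. By that rule 1.33% of all 16271 genes were called (0.86% higher and 0.467% lower), against 3.31% of the neighbours. At an unadjusted p under 0.05, 11 neighbours passed, and the share over all genes was 9.15%. In 20 neighbours the KO and control libraries did not overlap, where 13.9% of all genes showed this. The median size of the log2 fold change was 0.140 over the neighbours and 0.105 over all genes. Without KO 76 the count was again 4, with 344 genes called in all, and Ptprh (log2 fold change -3.83), Eps8l1 (-2.02), Gm45844 (-1.42) and Zfp110 (0.61) each passed, as Trim28 did (-1.48). AC139131.1, Rnf225, Bbc3 and Gm36210 were too low to be tested. The window was proposed with Emx results known, so these counts describe the neighbours and support nothing by themselves.

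Ptprh, a receptor-type tyrosine phosphatase, showed the largest difference of the neighbours. It passed the limit of 60 reads through the control libraries, which hold 84 of its 88 reads, so its difference is not independent of how it was chosen. The gene (ENSMUSG00000035429.13, chr7:4548612-4604041, minus strand) held 0.0568, 0.103 and 0.0792 CPM in KO and 1.12, 1.41 and 1.20 CPM in control. That is 1 or 2 reads in every KO library and 26 to 31 reads in every control library, with no overlap. Summed over libraries, the control level was 15.2 times that of KO with a 95% counting interval of 5.72 to 57.1, which covers counting error only. The log2 fold change was -3.83 (SE 0.45, edgeR adjusted p = 0.00067), and the call held when each library was left out in turn.

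Eps8l1, which encodes an actin-regulating adaptor related to EPS8, lies at lower coordinates than Ptprh, on the plus strand (ENSMUSG00000006154.13, chr7:4460674-4480487). It held 0.455, 0.517 and 0.555 CPM in KO and 3.01, 1.25 and 1.56 CPM in control, without overlap (log2 fold change -1.97, SE 0.40, edgeR adjusted p = 0.028). Control animal 64 stood above the other controls, and without it the log2 fold change was -1.47 with an edgeR adjusted p of 0.137. Gm45844 is a predicted protein-coding model (ENSMUSG00000110105.1, chr7:7213017-7278289, minus strand). It held 0.568, 0.724 and 0.475 CPM in KO and 1.81, 1.90 and 1.56 CPM in control (log2 fold change -1.53, SE 0.28, edgeR adjusted p = 0.015). Leaving out KO 60, KO 73 or control 77 also ended the Eps8l1 call (edgeR adjusted p between 0.078 and 0.133). Leaving out KO 60 or any control ended that of Gm45844 (edgeR adjusted p between 0.053 and 0.098). All these levels are low, at no more than 83 reads in any library. Eps8l1 and Gm45844, like Ptprh, passed the limit of 60 reads through the control libraries. Their differences are therefore not independent of how they were chosen.

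Zfp110, a zinc-finger protein also known as a partner of the p75 neurotrophin receptor, was the neighbour that rose (ENSMUSG00000058638.14, chr7:12834761-12850577, plus strand). It stood at 22.8, 21.4 and 18.9 CPM in KO and at 14.2, 15.2 and 14.2 CPM in control, without overlap (log2 fold change 0.54, SE 0.11, edgeR adjusted p = 0.037). The call was lost when any library other than KO 76 was left out, with edgeR adjusted p between 0.067 and 0.274 and log2 fold changes between 0.48 and 0.57. Syt5, a synaptotagmin of synaptic and dense-core vesicles that directly neighbours Ptprh, was singled out after its values were seen. It held 85.02, 85.8 and 95.4 CPM in KO and 65.8, 64.2 and 63.4 CPM in control. It passed on adjusted p, as 1.37% of all genes did, and not on size (log2 fold change 0.46, SE 0.088, edgeR adjusted p = 0.021). Gm15494, whose annotated span overlaps Eps8l1 on the opposite strand, had a log2 fold change of 0.99 and did not pass (edgeR adjusted p = 0.24), and the counting used strand.

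**Figure D1:**
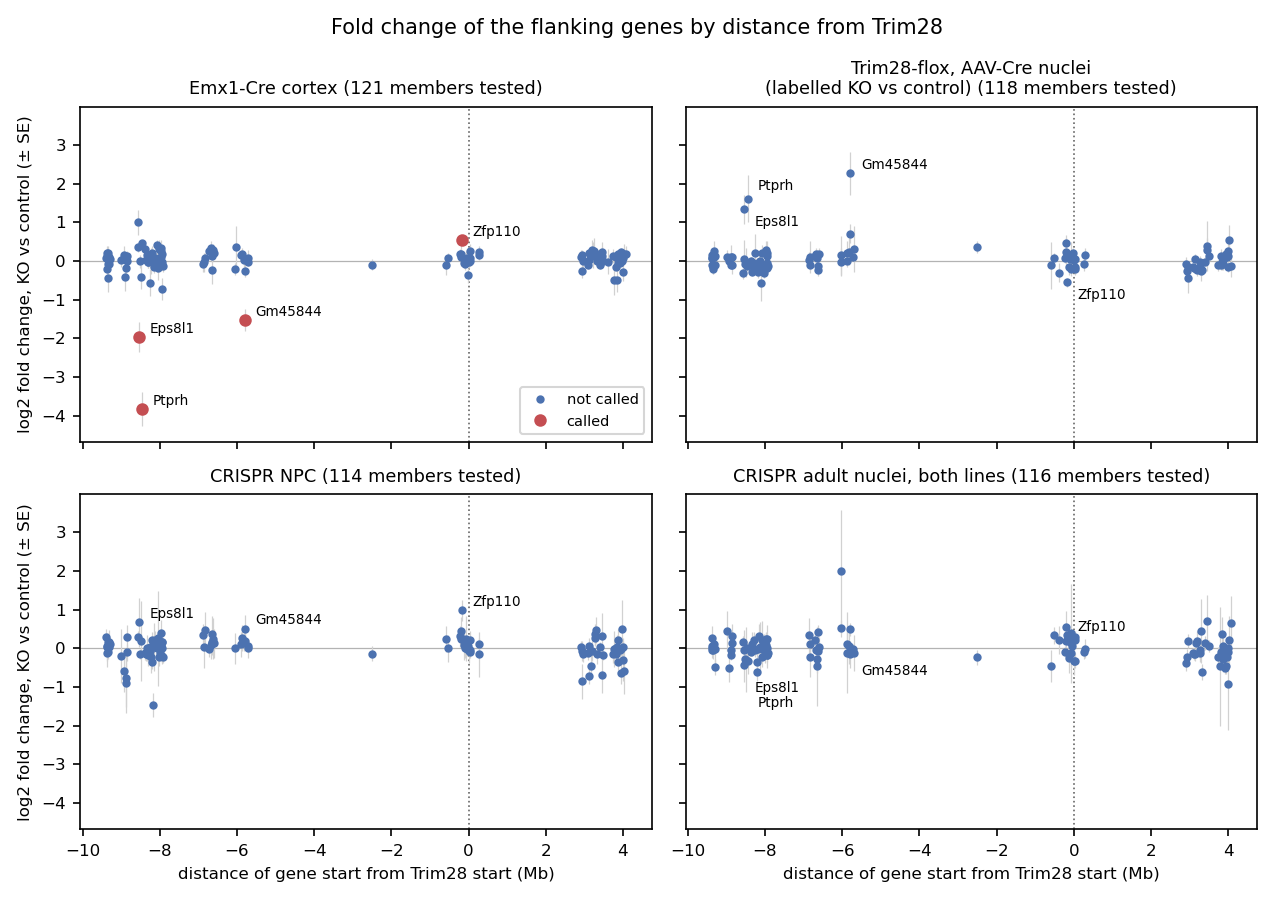
Log2 fold change (KO against control, with its SE) of each tested neighbour plotted by the distance of its start from that of Trim28 in Mb, for Emx, flox, NPC and both Cas9 lines, with called genes in red. Of the 121 neighbours tested in Emx, the 3 called lower lie between 8.54 and 5.79 Mb before Trim28 and the 1 called higher lies 0.164 Mb before it, and no neighbour was called in the other experiments.

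Calls in Emx cortex stood both next to Trim28 and several Mb away from it. Within 1 Mb, 1 of 17 tested genes was called, and between 10 and 5 Mb before Trim28, 3 of 69 were. Of the 34 tested genes from 1 to 5 Mb after Trim28, 0 were called, and from 5 to 20 Mb after it 1 of 229 (0.437%). The share was 1.25% over the rest of chromosome 7 and 1.32% over the other chromosomes. The 10 tested neighbours nearest to Trim28 were Zfp110 and 9 genes that did not pass the test in bulk cortex. Among these, the ESCRT-III subunit Chmp2a and the NEDD8-conjugating enzyme Ube2m had log2 fold changes of 0.07 and -0.01. The zinc-finger genes Zbtb45, Zfp324, Zscan22 and Zfp128 lay between -0.08 and 0.07, where Zbtb45 lies within the span of Trim28 on the opposite strand, and Mzf1 and Zfp446 were at 0.25 and -0.38. Chmp2a, next to Trim28, stood at 50.02 CPM ± 8.33 (SD, n = 3) in KO and 47.6 CPM ± 1.98 in control. Zfp446 held 3.27 CPM in KO and 4.22 CPM in control on average.

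Over roles, the neighbours moved little in Emx cortex. Of the 30 zinc-finger genes 1 rose and 0 fell, with a median log2 fold change of 0.0752, and 19 were above 0. Of the 16 genes with roles in neurons and synapses 1 fell, which was Ptprh, a phosphatase not particular to neurons, and the median was 0.0223. Calm3, which encodes calmodulin, held 698 CPM ± 121 (SD, n = 3) in KO and 727 CPM ± 51.3 in control, and the sodium-calcium exchanger gene Slc8a2 held 326 and 285 CPM on average. Clcn4, which encodes a chloride-proton exchanger, held 264 and 270 CPM and the kinase gene Brsk1 86.2 and 87.7 CPM. None of these 4 passed the test. The median was 0.0183 over the 6 splicing and RNA-processing genes and 0.0688 over the 3 ubiquitin and membrane-fission genes, with no calls. Of the 16 unnamed models tested 1 fell (Gm45844). The median over all genes was 0.007, and over the 121 neighbours 0.059.

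In the flox experiment no neighbour of the 118 tested was called by edgeR, where 0.0409% of all genes (7 of 17102) were. At an unadjusted p under 0.05, 10 neighbours passed (4.74% over all genes), and in 3 the libraries labelled KO and control did not overlap (3.37% over all genes). The median size of the log2 fold change was 0.137 over the neighbours and 0.139 over all genes. DESeq2, an alternative fit, called 2 neighbours, Gm45844 (DESeq2 adjusted p = 0.0092) and Zfp110 (DESeq2 adjusted p = 0.018). Its share over all genes is not given here, so this count is not read as a result about the neighbours.

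The genes called in Emx cortex took the opposite order here. Ptprh held 4.11, 0.389, 3.27 and 4.33 CPM in libraries labelled KO and 0.681, 1.03, 1.64 and 0.567 CPM in those labelled control (log2 fold change 1.61, SE 0.60, edgeR adjusted p = 0.97). Gm45844 held 5.72, 1.28, 4.47 and 10.6 CPM against 1.23, 0.863, 0.593 and 1.93 CPM (log2 fold change 2.26, SE 0.56, edgeR adjusted p = 0.71). For both genes the library flox_795 (named for its animal), labelled KO, lay at the level of the libraries labelled control, and the other 3 labelled KO lay above all of these. Eps8l1 held 6.17, 2.39, 5.05 and 2.33 CPM against 1.74, 1.21, 2.19 and 1.13 CPM, without overlap (log2 fold change 1.33, SE 0.38, edgeR adjusted p = 0.94). Zfp110 held 24.0, 21.2, 23.1 and 20.5 CPM against 31.4, 31.6, 37.0 and 30.0 CPM, also without overlap (log2 fold change -0.55, SE 0.12, edgeR adjusted p = 0.40). Trim28, too, was ordered against the labels in these libraries. The difference in direction between Emx and flox was not tested for these genes.

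Zfp772 and Rdh13 were singled out after their values were seen. Zfp772, a zinc-finger gene, held 69.6, 27.9, 67.3 and 55.9 CPM in libraries labelled KO and 35.3, 26.7, 38.4 and 34.5 CPM in those labelled control, with flox_795 again at the lower level. Rdh13, a mitochondrial retinol dehydrogenase gene next to Gm15494, held 145, 215, 153 and 134 CPM against 207, 210, 200 and 195 CPM, with flox_795 at the higher level. Neither passed the test. By role, 0 of 30 zinc-finger genes were called (median log2 fold change 0.0515), and the 15 neuron and synapse genes tested had a median of -0.0797.

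**Figure D2:**
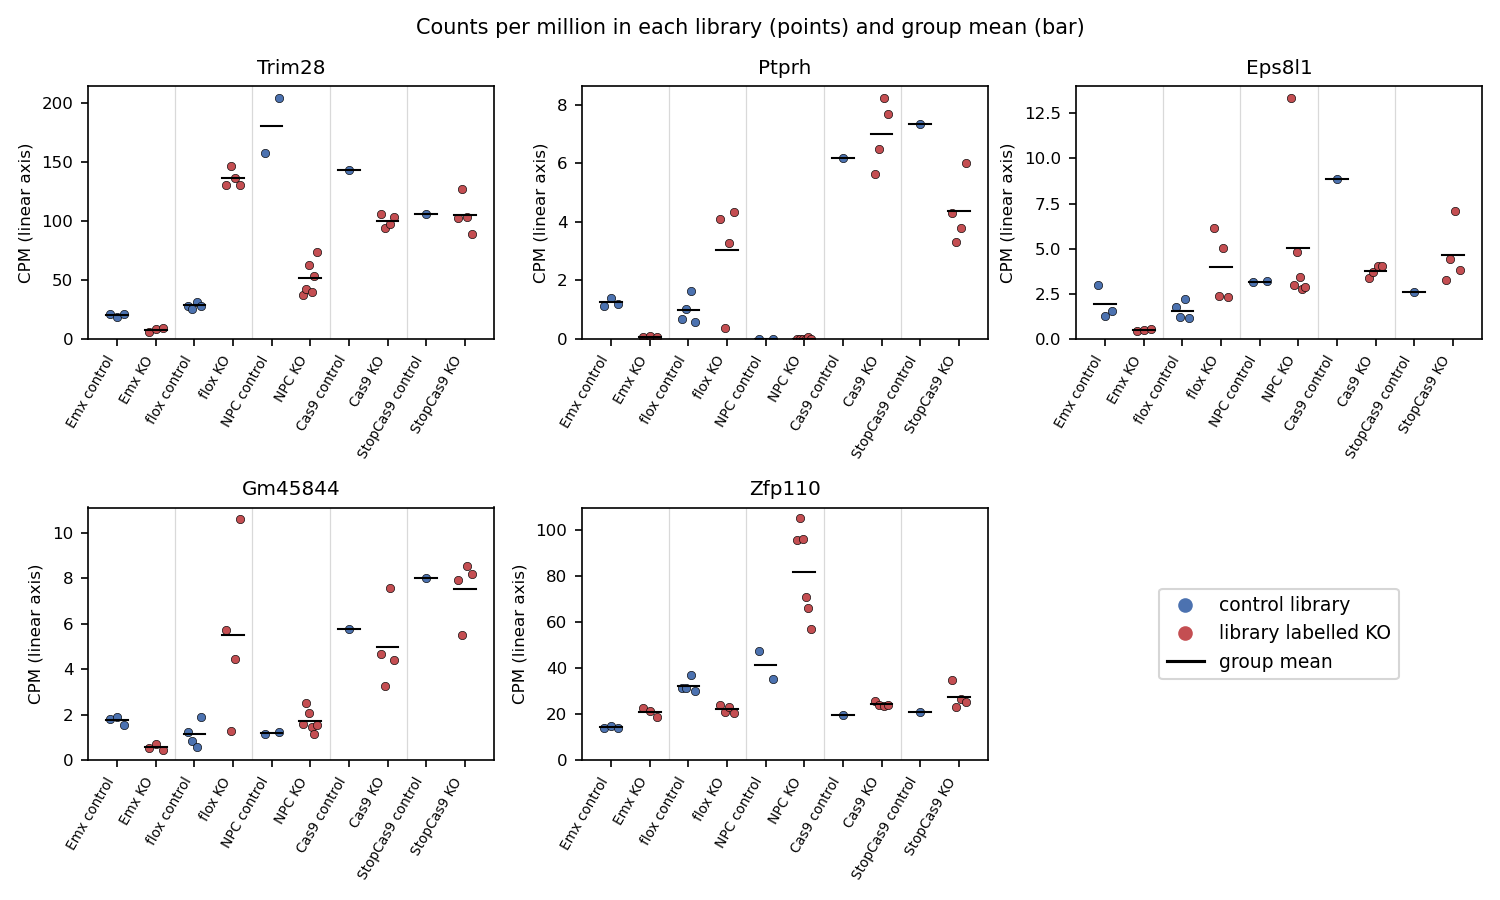
Level of Trim28, Ptprh, Eps8l1, Gm45844 and Zfp110 in CPM (linear axis) in every bulk library, by experiment and by label, with 1 point for each library and a bar for the group mean. For Ptprh, Eps8l1 and Gm45844 the Emx KO points lie below all control points, and in flox 3 or 4 of the 4 points labelled KO lie above all points labelled control.

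In the striatum under CRISPR, none of Ptprh, Eps8l1, Gm45844 and Zfp110 passed the test. Of the 116 neighbours tested over both Cas9 lines together 0 were called, beside 0.0054% of all genes (1 of 18513), and 9 had an unadjusted p under 0.05 (6.23% over all genes). In 5 neighbours the KO and control libraries did not overlap (4.17% over all genes). Ptprh held 5.63 to 8.23 CPM in the Cas9 KO libraries and 6.19 CPM in their control, and 3.32 to 6.01 CPM in the StopCas9 KO libraries against 7.34 CPM (log2 fold change over both lines -0.32, edgeR adjusted p = 0.95). Its control lay within the KO range in Cas9 and above it in StopCas9. Gm45844 held 3.28 to 7.59 CPM against 5.79 and 5.497 to 8.56 CPM against 8.02 (log2 fold change -0.16). Eps8l1 held 3.38 to 4.03 CPM against 8.84 in Cas9 and 3.29 to 7.08 CPM against 2.597 in StopCas9, so the lines point in opposite directions. Zfp110 was above its control in all 8 KO libraries, at 23.6 to 25.6 CPM against 19.8 and at 23.0 to 35.1 CPM against 21.0, and did not pass the test (log2 fold change 0.34, edgeR adjusted p = 0.84). Each line has 1 control library, which the fit assumes to vary as the KO libraries do. Fitted alone, neither line gave a called neighbour (0 of 119 and 0 of 117) or a called gene of the whole table (0 of 19004 and 0 of 18777), and 7 and 1 neighbours had an unadjusted p under 0.05 (8.21% and 2.44% over all genes).

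In NPC, 0 of 114 neighbours were called by edgeR and 0.194% of all genes (32 of 16469), and 3 neighbours had an unadjusted p under 0.05 (4.57% over all genes). In 9 the KO and control libraries did not overlap (6.85% over all genes). Zfp110 was above both controls in all 6 KO libraries, at 56.9 to 105 CPM against 35.2 and 47.6 CPM (log2 fold change 0.98, SE 0.27, edgeR adjusted p = 0.43). With the culture number series as a block the adjusted p was 0.014. Shisa7, an auxiliary subunit of GABA-A receptors singled out after its values were seen, held 0.959 to 1.73 CPM in KO and 4.30 and 3.04 CPM in control (log2 fold change -1.47, SE 0.30, edgeR adjusted p = 0.18, and 0.046 with the block). Eps8l1 held 2.76 to 13.4 CPM in KO and 3.17 and 3.18 CPM in control, and Gm45844 1.15 to 2.54 and 1.18 and 1.24 CPM. Ptprh had reads in 1 of 8 NPC libraries and was not tested. By role, 22 of 29 tested zinc-finger genes were above 0 with a median of 0.0919 and 2 of 14 neuron and synapse genes with a median of -0.136, with 0 calls in both groups.

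The germline-flox and the CRISPR experiments were then compared by the difference between their KO effects, fitted over all genes. For flox minus both Cas9 lines, all from sorted adult nuclei, 0 of 123 neighbours differed, beside 0.0836% of all genes (18 of 21536). At an unadjusted p under 0.05, 9 neighbours passed, and the share over all genes was 6.64%. Counts and directions of this contrast rest on the flox labels as deposited. The fitted difference was 2.44 for Gm45844 (edgeR adjusted p = 0.23), 1.92 for Ptprh (0.58), 1.54 for Eps8l1 (0.57) and -0.87 for Zfp110 (0.22). With library flox_795 left out, Gm45844 passed with a difference of 2.77 (edgeR adjusted p = 0.046). Trim28 itself differed by 2.54 (edgeR adjusted p = 6.37e-09), in the direction set by the libraries labelled against their Trim28 level.

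For the mean of Emx and flox minus the mean of the CRISPR experiments, 0 of 125 neighbours differed, beside 0.0202% of all genes (5 of 24697), and 7 had an unadjusted p under 0.05 (6.24% over all genes). This count, too, rests on the flox labels as deposited. That mean sets Emx and flox values of opposite sign against each other. The difference was -1.40 for Ptprh (edgeR adjusted p = 0.95), -0.44 for Eps8l1, 0.27 for Gm45844 and -0.59 for Zfp110. With Emx alone against the CRISPR experiments, a comparison added after the data were seen, 0 neighbours differed, beside 0.0167% of all genes (4 of 23984). Ptprh then had a difference of -4.08 (SE 0.91, edgeR adjusted p = 0.45), Eps8l1 -2.08 (0.73), Gm45844 -1.66 (0.56) and Zfp110 -0.06. These contrasts span different tissues, cell preparations and library depths, and an estimate as large as that for Ptprh did not pass. They do not show that germline-flox and CRISPR effects are alike.

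Individual TE copies were counted in the same libraries, and those that start in the window are described next. In Emx cortex 5 of the 125 tested copies of the window were called, 4 lower and 1 higher, and 2.92% of all 14556 tested copies were. At an unadjusted p under 0.05, 11.2% of the copies of the window and 8.24% of all copies passed. Without KO 76 the count was 6, beside 485 of all 16190 copies tested, and all 5 copies described here passed. Among the 4 that fell, 2 lie within introns of Gm45844, whose own reads fell, and their reads cannot be told apart from those of its unspliced transcript. All 4 had at most 2 reads in any KO library, so they passed the filter on low counts through the control libraries. Their differences and adjusted p-values are therefore not independent of that filter.

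B2_Mm1a_dup6686, 182 bases in an intron of Ube2s on the opposite strand, had 0 reads in each of 3 KO libraries and 41, 32 and 24 reads in control (edgeR adjusted p = 5.63e-08, at least 7.62-fold lower). The fold is against a floor of 3 reads per library. L1Md_T_dup8917, a LINE-1 copy of 6442 bases in an intron of Gm45844 (chr7:7216427-7222868, minus strand), had 0 reads in each KO library and 17, 13 and 18 in control (edgeR adjusted p = 1.87e-05, at least 3.77-fold lower). B2_Mm1a_dup6729, 187 bases in an intron of Trim28 on the opposite strand, had 0 reads in each KO library and 20, 16 and 23 in control (edgeR adjusted p = 3.57e-06, at least 4.65-fold lower). These 3 copies were the only copies of the 3494634 in the table with 0 reads in every Emx KO library and at least 10 in every control, a pattern chosen after the data were seen and given as a description. The reverse pattern, 0 in every control and at least 10 in every KO library, held for 48 copies of the table and for 0 in the window.

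The other LINE-1 copy in Gm45844, L1VL2_dup1393 (chr7:7261178-7262946, minus strand), had 2, 2 and 0 reads in KO and 23, 22 and 19 in control (log2 fold change -3.45, edgeR adjusted p = 5.61e-05). B2_Mm1a_dup6787, between Pnmal1 and Gm42372 and 3.97 Mb after Trim28, had 45, 54 and 26 reads in KO and 22, 28 and 21 in control (log2 fold change 1.24, edgeR adjusted p = 0.0029). It was the copy that rose, and its flox log2 fold change of -1.01 did not pass. Without control 64 its Emx call was lost (log2 fold change 1.04, edgeR adjusted p = 0.061).

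The same copies in the flox libraries again ran opposite to Emx. L1Md_T_dup8917 had 44, 1, 59 and 33 reads in libraries labelled KO and 0, 1, 0 and 0 in those labelled control, with flox_795 as the library at 1. B2_Mm1a_dup6729 had 5, 12, 5 and 23 reads in libraries labelled KO and 0 in all 4 labelled control, at least 3.75-fold higher. B2_Mm1a_dup6686 had 3, 0, 6 and 5 reads against 0, 0, 0 and 1, and L1VL2_dup1393 13, 0, 10 and 10 against 5, 5, 1 and 1. For 3 of these 4 copies flox_795 lay at or below the labelled controls, as it did for Ptprh and Gm45844, and for the copy inside Trim28 it lay with the libraries labelled KO. None of these 4 copies was tested in flox, because the filter on low counts asks for enough reads in as many libraries as the smaller group holds. L1Md_T_dup8917 missed it with flox_795 at 1 read, although the other libraries labelled KO held 33 to 59. No tested copy of the window was called there (0 of 439, beside 0.00641% of all copies).

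In the CRISPR experiments the LINE-1 copy L1Md_T_dup8917 had reads in every library of both groups. It had 84 to 164 reads in Cas9 KO libraries against 138 in control, 149 to 273 against 145 in StopCas9, and 7 to 48 against 16 and 22 in NPC. B2_Mm1a_dup6729 had 17 to 145 reads in NPC KO libraries and 18 and 53 in control, and in the Cas9 lines 0 to 15 reads in KO and 0 in both controls. B2_Mm1a_dup6686 had 0 reads in all 10 libraries of the Cas9 lines, and 0 to 23 in NPC KO against 5 and 13 in control. L1VL2_dup1393 departed from this in the Cas9 line, with 11 to 24 reads in KO against 0 in the single control. In StopCas9 it had 17 to 37 reads against 8, and over both lines it did not pass (log2 fold change 2.32, SE 1.03, edgeR adjusted p = 1). B2_Mm1a_dup6686 and B2_Mm1a_dup6729 had too few reads to be tested over both Cas9 lines. No tested copy of the window was called in NPC (0 of 307, beside 0.55% of all copies) or in both Cas9 lines (0 of 707, beside 0.00543%).

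**Figure D3:**
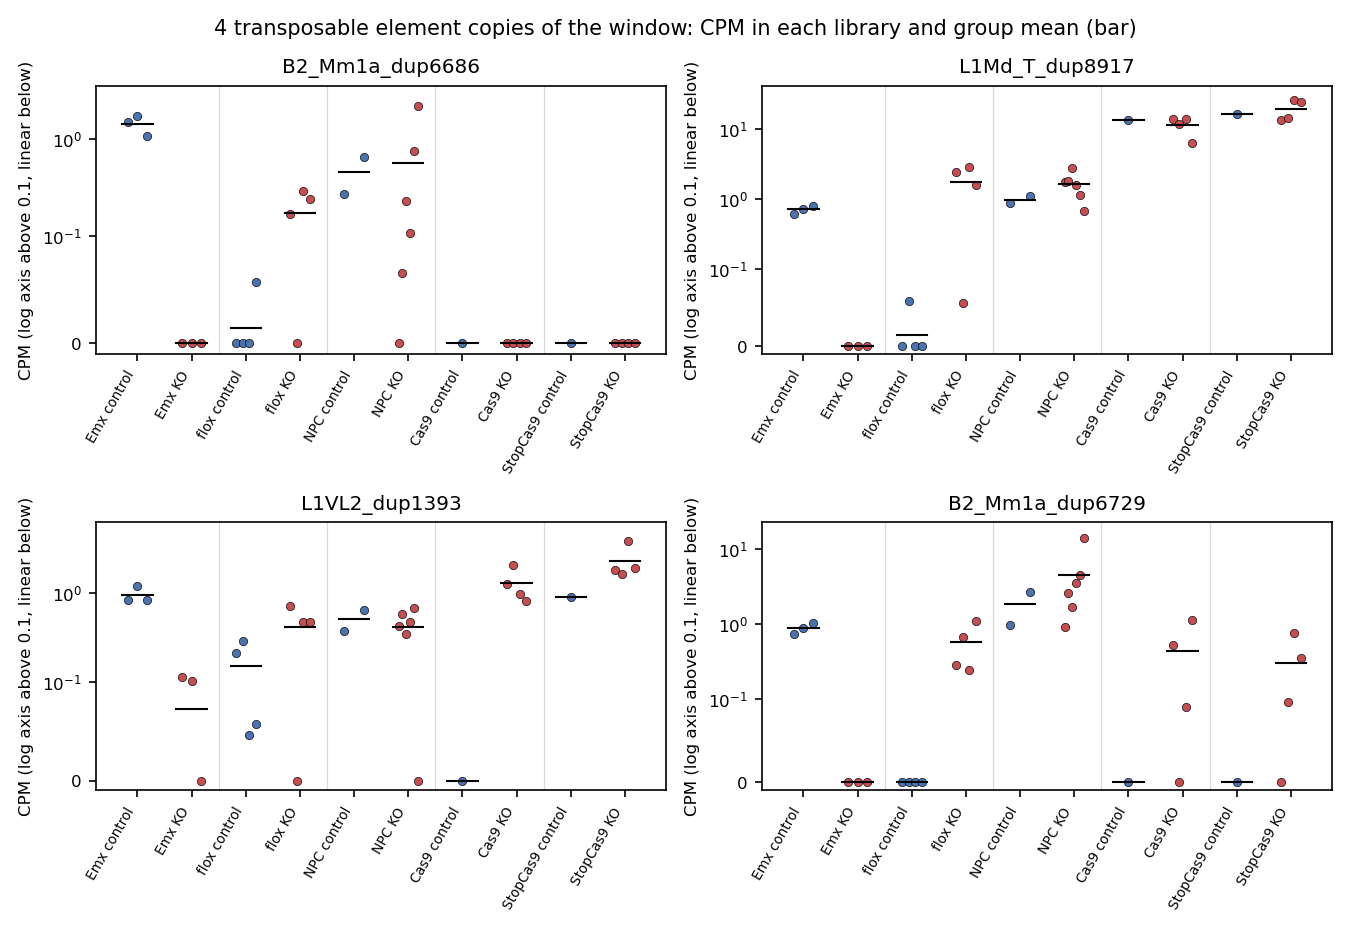
CPM of the 4 TE copies of the window that were called lower in Emx cortex, in every library by experiment and by label (log axis above 0.1 CPM, linear below), with a bar for the group mean. L1Md_T_dup8917 and B2_Mm1a_dup6729 are at 0 in all 3 Emx KO libraries, and at 0 or 1 read in the flox libraries labelled control.

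The nuclei libraries gave the levels of the neighbours by cell type. Of 13671 nuclei kept, 13625 fell in clusters named from markers, and 113 of the 125 neighbours were among the genes counted there. Counts of unique molecules (UMI) were summed for each animal and type, so that n is 2 animals a genotype. In the excitatory neuron-like clusters (1736 to 2344 nuclei an animal), 10 of 103 tested neighbours passed, beside 6.41% of all genes, and 28 had an unadjusted p under 0.05, where the share over all genes was 28%. All 10 calls were lost without the filter on low counts (edgeR adjusted p between 0.126 and 0.156), and 0 or 1 remained when an animal was left out. The class was made up differently in the genotypes. Cluster 1, led by Otof, held 39.4% and 45.9% of its nuclei in KO and 30.6% and 30.9% in control, and cluster 5, led by Foxp2, held 7.24% and 3.28% against 15.5% and 14.8%. Levels summed over the class mix these clusters, and the part of this in the calls was not tested.

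Of the neighbours called in excitatory neurons, Ptprh had the largest difference, with 11 and 7 UMI in KO and 32 and 21 in control (log2 fold change -1.82, SE 0.42, edgeR adjusted p = 0.049). In inhibitory neurons, which Emx1-Cre does not reach, it had 0 and 1 UMI in KO and 0 and 2 in control, too few to compare, and oligodendrocytes held 0 in every animal. Hif3a, of the hypoxia-inducible factor family, also fell in excitatory neurons, at 1.46 and 1.34 CPM in KO and 3.03 and 2.80 CPM in control (log2 fold change -1.05, edgeR adjusted p = 0.049). These levels rest on 36 to 67 UMI an animal. In astrocytes Hif3a stood far higher, at 159 and 152 CPM in KO and 127 and 121 CPM in control. It did not pass there (log2 fold change 0.32, edgeR adjusted p = 0.38). In excitatory neurons Nat14, an acetyltransferase-like gene, rose from 12.1 and 9.85 CPM in control to 22.3 and 19.7 CPM in KO (edgeR adjusted p = 0.023). Selenow, which encodes a small selenoprotein, rose from 67.8 and 75.6 CPM to 124 and 113 CPM (edgeR adjusted p = 0.019). Pnmal2, a PNMA-like gene, rose from 12.6 and 11.5 CPM to 18.9 and 19.8 CPM (edgeR adjusted p = 0.032). In inhibitory neurons Nat14, Selenow and Pnmal2 had log2 fold changes of 0.60, 0.43 and 0.41, none of which passed. Their differences between the classes did not pass either (edgeR adjusted p = 0.67, 0.53 and 0.72). Bulk Emx cortex holds these animals together with KO 76 and control 77. There Hif3a, Selenow and Pnmal2 had log2 fold changes of 0.18, 0.11 and 0.10 and Nat14 of 0.42, none of which passed. Eps8l1, called in bulk, had a log2 fold change of -0.20 in excitatory neurons and did not pass. Zscan22, 0.101 Mb before Trim28 and not called in bulk, was among those called in excitatory neurons (log2 fold change 0.68, edgeR adjusted p = 0.032). It passed in no other type, with log2 fold changes from 0.02 in oligodendrocyte precursors to 0.76 in inhibitory neurons and 1.96 in microglia.

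Zfp110 was the only neighbour to pass the test of a difference in KO effect between neuron classes. In excitatory neurons it stood at 14.1 and 15.4 CPM in KO and 9.39 and 10.6 CPM in control, and in inhibitory neurons at 10.4 and 14.1 CPM in KO and 20.1 and 16.4 CPM in control. Neither effect passed by itself (edgeR adjusted p = 0.060 and 0.32). The difference between them was 1.11 on the log2 scale (SE 0.23, edgeR adjusted p = 0.024), the 1 neighbour of 105 to pass, beside 1.62% of all genes. The neighbours thus passed no more often than all genes, and the contrast was not refitted with an animal left out. Whether RNA from other nuclei has a part in these values was not tested.

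Other types gave few calls. In oligodendrocytes 3 of 45 tested neighbours passed (2.97% of all genes): the ribosomal protein genes Rpl28 (log2 fold change 1.80, edgeR adjusted p = 0.0008) and Rps9 (1.41, 0.0076) and Tmem160 (1.79, 0.040), a membrane protein gene. In the other types where they were tested these 3 genes were also above 0, and none passed. Rps9 had log2 fold changes from 0.38 in astrocytes to 1.13 in oligodendrocyte precursors. In excitatory neurons, inhibitory neurons and astrocytes Rpl28 was at 0.45, 0.53 and 0.34 and Tmem160 at 0.71, 0.92 and 0.83. The ribosomal genes have near-identical copies elsewhere and their counts are uncertain. KO animals held 163 and 233 oligodendrocyte nuclei and controls 343 and 569, and Rpl28 rested on 23 to 51 UMI an animal. No neighbour passed in inhibitory neurons (0 of 93, beside 0 of all 12690 genes), where 16 had an unadjusted p under 0.05 (14.5% over all genes). The inhibitory count moved from 0 without control 64, a fit with a single control animal. In astrocytes 0 of 72 passed, beside 2.09% of all genes. In oligodendrocyte precursors 0 of 32 passed, beside 0.299%, with 5 at an unadjusted p under 0.05 (9.1% over all genes). In microglia 0 of 33 passed, beside 0 of all 6087 genes, with 2 at an unadjusted p under 0.05 (7.06% over all genes).

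**Figure D4:**
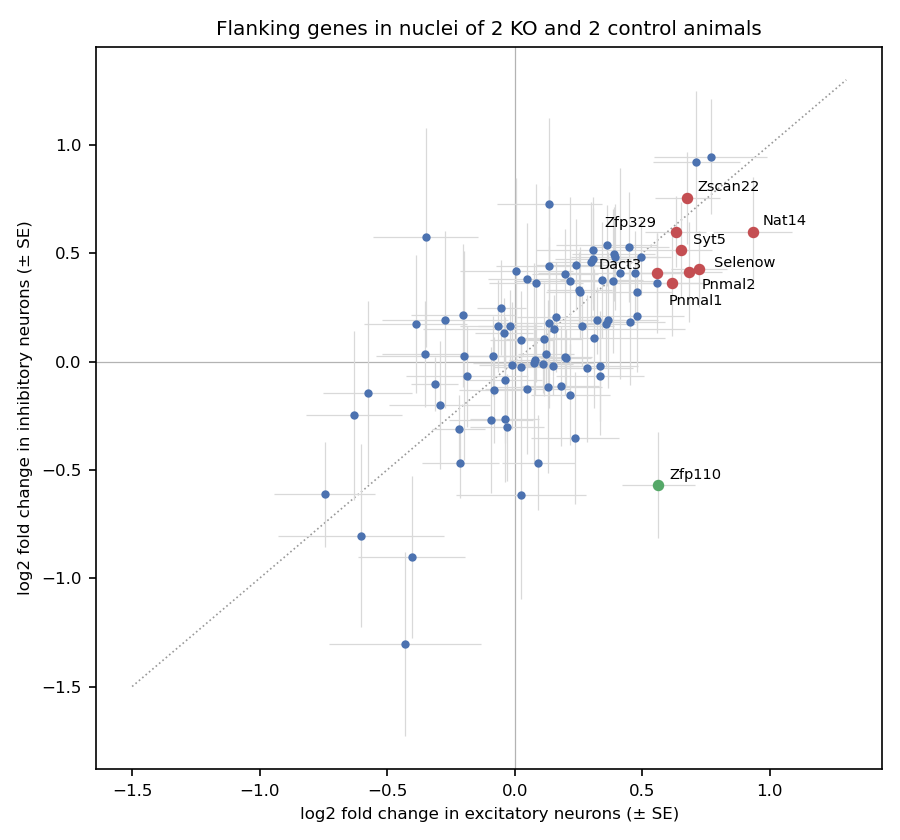
Log2 fold change (KO against control) of 93 neighbours in excitatory neurons plotted against that in inhibitory neurons of the same animals, with SE bars and a dotted line where both are equal. Red points are the 8 neighbours called in excitatory neurons that were tested in both classes, all above 0 on both axes, and the green point is Zfp110, above 0 in excitatory and below 0 in inhibitory neurons.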

How the data were processed

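Bulk RNA-seq libraries, individual TE copies and single nuclei were analysed from deposited tables. Per the labels and the study's methods, the authors made stranded paired-end mRNA libraries, aligned them with STAR 2.6.0 to GRCm38.p6 (mm10) and counted uniquely mapped reads per gene with featureCounts (Subread 1.6.3), and the deposited values used are raw counts. The authors' TE table gives raw counts of individual copies in the same libraries, and a second deposited table from TEtranscripts gives genes and TE families as counts. Nuclei were counted by the authors with Cell Ranger 3.0 against a pre-mRNA reference, and the deposited matrices hold UMI counts. CUT&RUN signal was not used here, and 6 table columns that belong to no sample of the series were left out. Columns named flexcas were matched to the StopCas9 samples by guide.

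Genes passing filterByExpr were TMM-normalised and tested two-sided with the edgeR 4.0.16 quasi-likelihood test in R 4.3.3, each experiment alone, with Benjamini-Hochberg adjustment over all genes tested. Genes were called at adjusted p under 0.05 with a change over 0.5 on the log2 scale, up or down. SE is the log2 fold change divided by the root of F. TE copies took library sizes and TMM factors from the genes. Nuclei within 3 median absolute deviations were clustered with Seurat 5.3.0 (2000 variable genes, 20 components, resolution 0.1), named from markers, and summed for each animal and type of at least 20 nuclei. Scrublet marked doublets, which were kept and left out as an alternative. The 4 libraries shared 36 barcode sequences. Floors of 3 counts and intervals cover counting error only. Alternatives were DESeq2 1.42.0, other scalings, no filter, left-out libraries and replicate blocks, and the scripts were tested on simulated data.

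Named genes were Trim28 and the genes left out by name, called neighbours whose groups did not overlap (at most 10 a direction in Emx and flox, 5 in NPC and the Cas9 lines), those called in both Emx and flox, the 10 nearest to Trim28, those that differed between flox and the Cas9 lines, and at most 5 called per nuclei type, of which 1 gene is not reported here. The neighbours and gene lists were chosen with earlier results of these data known. In NPC the culture numbers run in 2 series. Deviations from the group mean correlated at 0.423 to 0.73 within a series, and with 2 controls the values between series mirror these, so the series was taken as a replicate block in an alternative fit.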

Additional observations from a re-analysis of the deposited data

Results flagged for a closer look

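Several levels stood apart from the other libraries of their group by Dixon's test, in 15 of 107 groups examined, where chance gives about 1 in 20 for near-normal values. Several of the flagged groups were at 0 in all but 1 library, and that rate does not apply to them. Zim1 stood at 15.7 CPM in library flox_795, labelled KO, against 6.83 to 8.23 CPM in the other libraries with that label, and at 28.8 CPM in the Cas9 KO library of guide g13 against 11.4 to 13.2 CPM. In culture NPC_845 (KO), Eps8l1 was at 13.4 CPM against 2.76 to 4.83 CPM and Zfp446 at 16.7 CPM against 10.4 to 12.5 CPM. Mzf1 held 68.8 CPM in the Cas9 KO library of guide g4 against 44.9 to 48.7 CPM. Ptprh was at 0.0575 CPM, a single read, in culture NPC_873 and at 0 in the other KO cultures of NPC.

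Among TE copies, culture NPC_876 (KO) was high for B2_Mm1a_dup6686 (2.21 CPM against 0 to 0.748), B2_Mm1a_dup6729 (13.9 CPM against 0.908 to 4.49) and B2_Mm1a_dup6787 (1.44 CPM against 0 to 0.16). B2_Mm1a_dup6787 was also high in library flox_823, labelled KO (0.856 CPM against 0.192 to 0.278), in the Cas9 KO library of guide g3 (1.20 CPM against 0) and in the StopCas9 KO library of guide g3 (3.22 CPM against 0 to 0.288). L1VL2_dup1393 held 3.93 CPM in the StopCas9 KO library of guide g13 against 1.63 to 1.94 CPM. In flox libraries labelled control, B2_Mm1a_dup6686 was at 0.057 CPM in library flox_822 and L1Md_T_dup8917 at 0.058 CPM in library flox_798, each from a single read, and at 0 in the others.

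Effects that differed between groups by a test were those of Zfp110 in excitatory minus inhibitory neurons (1.11 on the log2 scale) and of Trim28 in flox minus both Cas9 lines (2.54) and in Emx and flox minus the CRISPR experiments (1.19). Some log2 fold changes had opposite signs between experiments with every library of each on 1 side, and those differences were not tested. Trim28 was at -1.39 in Emx, 2.26 in flox as labelled and -1.82 in NPC. Eps8l1 was at -1.97 in Emx and 1.33 in flox, and Zfp110 at 0.54 in Emx, -0.55 in flox and 0.984 in NPC.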

How the results depend on the processing

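Of 117 settings tried on the counts of called neighbours and copies, 94 left the count within 1.5 times its value, and of 456 settings tried on single genes 373 left the direction and the side of the threshold as they were. In Emx cortex the count ranged from 1 to 4 when a library was left out, against 4 with all libraries, and Ptprh was called each time (log2 fold change -4.10 to -3.63). Leave-one-out fits of the Emx TE copies, added after seeing the data, called 4 to 7 copies of the window, against 5. Over all copies tested, these fits called 388 to 510. DESeq2 called 2 neighbours in flox, 1 in NPC and 1 in the difference between flox and the Cas9 lines, each against 0 by edgeR. The share over all genes is not given for these fits, so their counts are not read as results about the neighbours. That difference also gave 1 neighbour with no filter on low counts and 1 without library flox_795, an alternative chosen after seeing the data. In nuclei, excitatory neurons went from 10 to 0 with no filter and to 0 to 1 with an animal left out. Inhibitory neurons went from 0 to between 0 and 14, the 14 without control 64, and astrocytes from 0 to 1 with no filter and to between 0 and 3 with an animal left out. Oligodendrocytes went from 3 to 1 by DESeq2 and to between 1 and 6 with an animal left out. For the mean of Emx and flox minus the CRISPR experiments, the Trim28 difference of 1.19 reversed to -0.65 without the flox experiment, whose Trim28 levels run against the labels. The other causes were not tested.

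With the NPC number series as a replicate block, 2 neighbours (Zfp110 and Shisa7) were called against 0 without it, and 136 genes of the whole table against 32. The 2 NPC controls belong to different series, so under the block each is compared within its series. It changed the call of no other neighbour. Of the other experiments, none gave its groups shared culture or animal numbers.

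Depth and replicate number set the limits. Ptprh, Eps8l1 and Gm45844 lie near 1 CPM in Emx cortex, each Cas9 line has 1 control library, and nuclei came from 2 animals a genotype. The germline difference and the loss of Trim28 cannot be told apart in Emx cortex.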
